A study of Mus musculus with 5 samples.

Results

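The 10 immediate early genes Fos, Fosb, Jun, Junb, Egr1, Atf3, Nr4a1, Ier2, Dusp1 and Zfp36 were followed by bulk RNA-seq in prostate tumors of TripleTg mice. They were chosen by symbol, and 10 of 10 had an entry among the 24527 genes of the count table. The 3 castrated mice (C1, C2 and C3) and 2 intact mice (I1 and I2) were separate animals of the genotype hHGFtg:H11hMET/+:Ctnnb1L(Ex3)/+:PBCre4 on a mixed C57BL/6 and C3H SCID background. Every mouse in both groups therefore carried a human HGF transgene, a human MET transgene that Cre switches on, a β-catenin allele that Cre stabilizes by removing an exon, and PBCre4, a Cre recombinase under the probasin promoter that is active in prostate epithelium. Castration was performed at 4 months of age and tissue from both groups was analyzed at 8 months. RNA was extracted from fresh tissue, and the time between death and lysis is not given in the sources used here. The comparison addresses how loss of testicular androgen changes the transcriptome of these tumors.

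Immediate early genes are transcribed within minutes of a stimulus without new protein synthesis. Growth factor receptors such as MET act through ERK on SRF and its ternary complex partners at these promoters, and stress kinases, calcium and cyclic AMP act on the same promoters through ATF and CREB factors. Many of their messages are short-lived, in part because untranslated sequence after the coding region carries AU-rich elements that ZFP36 and its relatives recognize. The same genes respond to wounding, warming and digestion of tissue, which is why they are widely read as a sign of sample handling as well as of signaling.

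No element searched for was found in the promoters of all matched members. The RefSeq table of 300-base promoter windows (GRCm38.p6, from 250 bases before to 50 bases after the gene start) matched 8 of the 10 members, without Egr1 and Ier2. Both strands were searched for the CArG box bound by SRF, the cyclic AMP response element TGACGTCA, its core, which reads TGACG on one strand and CGTCA on the other, the AP-1 site TGANTCA and the EGR site, which reads GCGNGGGCG on one strand and CGCCCNCGC on the other. Each full cyclic AMP response element also counts as a core. The following 4 promoters are shown because each carries a different combination, with the 150 bases before the start written 5′ to 3′ on the strand of the gene and every match in capitals.

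Fos: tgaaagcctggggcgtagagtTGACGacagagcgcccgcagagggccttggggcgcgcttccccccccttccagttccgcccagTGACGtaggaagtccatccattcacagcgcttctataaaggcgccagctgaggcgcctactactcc

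Nr4a1: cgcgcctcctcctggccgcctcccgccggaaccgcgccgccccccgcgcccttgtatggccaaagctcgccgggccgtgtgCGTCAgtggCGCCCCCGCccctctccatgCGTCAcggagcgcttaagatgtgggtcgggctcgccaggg

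Dusp1: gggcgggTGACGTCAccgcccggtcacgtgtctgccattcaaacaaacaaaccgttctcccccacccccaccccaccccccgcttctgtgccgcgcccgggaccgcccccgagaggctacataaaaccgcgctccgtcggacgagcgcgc

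Zfp36: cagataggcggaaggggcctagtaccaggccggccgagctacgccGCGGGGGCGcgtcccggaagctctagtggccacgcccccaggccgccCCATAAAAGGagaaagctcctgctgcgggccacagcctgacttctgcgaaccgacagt

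These stretches lie at chr12:85473740-85473889 (plus strand) for Fos, chr15:101266696-101266845 (plus strand) for Nr4a1, chr17:26508473-26508622 (minus strand) for Dusp1 and chr7:28379229-28379378 (minus strand) for Zfp36. The Fos stretch holds cores at -129 and -66, counted from the start, and the Nr4a1 stretch holds cores at -69 and -40 around an EGR site at -60. Dusp1 is the one matched member with a full cyclic AMP response element, at -143, and Zfp36 the one with a CArG box in this window, at -58. A core was found in 6 of 8 matched members against 21.0% of 27025 promoters in the table. An EGR site was found in 3 of 8 members against 5.55% of promoters, a CArG box in 1 against 1.57%, a full cyclic AMP response element in 1 against 1.88%, and an AP-1 site in 0 against 7.93%. A match is a description of letters in a window of this size and not of a bound site.

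Sequencing depth was similar in both groups. The libraries held 28015507 (C1), 18951782 (C2), 20492061 (C3), 21560355 (I1) and 22853501 (I2) counts. Counts of single members ranged from 37, for Fosb in I2, to 3896, for Jun in C2. Levels of one gene are given as CPM, its count relative to the library total after TMM scaling, and levels of different genes as TPM, which also divides by gene length.

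The libraries differed in their levels of cell type markers. The 10 epithelial markers summed to 5743, 5128 and 6269 TPM in C1, C2 and C3 and to 8686 and 4589 TPM in I1 and I2, with Krt18, a keratin, the most abundant. Of the 10, 7 were highest in I1 and none was at 0 in any sample. Of the 10 markers of secretory prostate and seminal vesicle, 1 passed the filter on low counts, and their summed level was 1417 TPM in I2 against 4.54 TPM in I1 and 5.90 to 19.5 TPM in castrated samples. Their most abundant gene, Tgm4, a secreted transglutaminase, was at 907 TPM in I2 and at 0.36 TPM or less in the other samples, while Msmb had no count in any sample. Pbsn, the probasin gene whose promoter drives Cre, was at 12.4 TPM in I2 and had no count in C2 or I1. I2 thus carried secretory transcripts at a level far above the other 4 samples. Adipocyte markers had a summed level of 1306 and 993 TPM in C2 and C3, against 150 TPM in C1 and 119 and 171 TPM in I1 and I2. In bulk tissue, fewer cells of a type and less RNA per cell cannot be told apart.

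No immediate early gene differed between castrated and intact tumors by more than the spread between mice. The filter on low values kept genes over 1 CPM in 2 or more mice, which all 10 members passed, and these genes were tested with edgeR's quasi-likelihood test. Calls required a Benjamini-Hochberg adjusted p below 0.05 together with a log2 fold change beyond 1 or -1. By this rule 0 members were called, as were 0% of the 14612 genes tested. With the unadjusted p in its place 0 members passed against 10.9% of genes tested, and at an unadjusted p below 0.05 with no limit on the fold change 0 members passed against 15.0%. DESeq2, which called 6.77% of genes, the likelihood ratio test, which called 2.53%, and limma voom, which called 0%, also called 0 members. The 3 castrated values lay on one side of both intact values for 1 member, Atf3, against 33.1% of genes tested. The median log2 fold change over the members was 0.082, with values from -0.34 to 0.83, and the median over all genes tested was -0.028. An exact permutation test of 3 against 2 samples cannot give a two-sided p below 0.1.

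**Figure D1:**
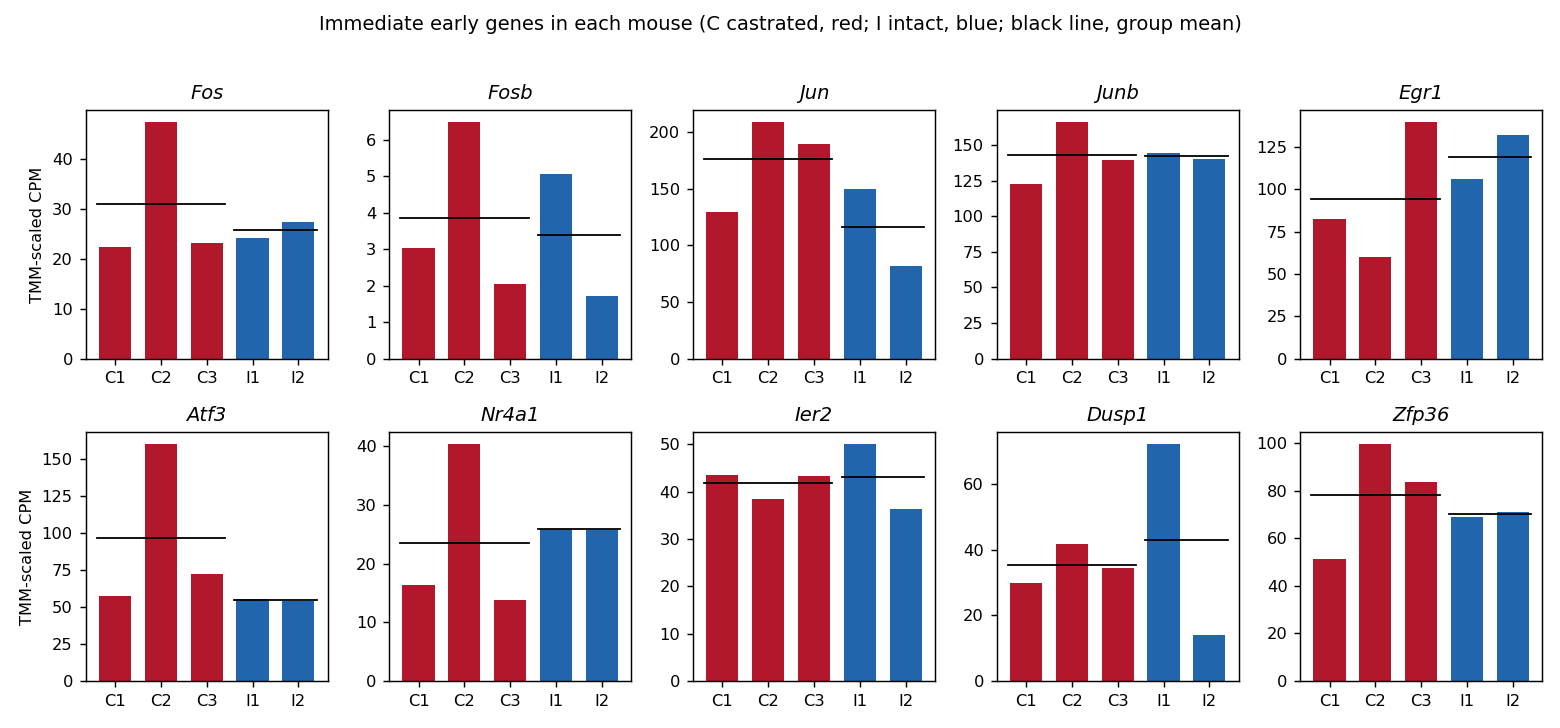
TMM-scaled CPM (vertical axis, starting at 0) of each member in castrated mice C1 to C3 and intact mice I1 and I2, with black lines at the group means. C2 is the tallest bar for 7 members, and Dusp1 spans from 14.0 in I2 to 72.3 in I1.

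The AP-1 subunits included the 2 most abundant members and the scarcest. AP-1 is a dimer of a JUN protein with a FOS, JUN or ATF protein. Junb (chromosome 8, 84976909 to 84978748), which encodes a JUN protein that often opposes JUN in growth control, was the most abundant member at a mean of 176 TPM. Its CPM was 122, 166 and 140 in castrated and 144 and 140 in intact samples. The groups overlapped and their means nearly coincided, at 143 ± 22.0 (SD, n = 3) and 142 ± 2.68 (SD, n = 2). Its log2 fold change was 0.0056 (95% interval -0.50 to 0.52), and the sign was negative with upper quartile scaling and with limma voom.

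Jun (chromosome 4, 95049036 to 95052222), the founding subunit and a substrate of JNK, followed at 111 TPM. Its CPM was 130, 209 and 190 in C1, C2 and C3 and 150 and 82.1 in I1 and I2. I2 lay below the other 4 samples, and I1 lay between C1 and C3. The difference was a log2 fold change of 0.60 with a standard error of 0.35 (quasi-likelihood test in edgeR, adjusted p = 0.462). Without I1 it was 1.12 with an unadjusted p of 0.0298 (edgeR, adjusted p = 0.182, range 0.182 to 0.844 over all alternatives), and without I2 it was 0.19.

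Fos (chromosome 12, 85473890 to 85477274), the prototype of the class, was less abundant at a mean of 31.2 TPM. Its CPM was 22.3, 47.4 and 23.1 in castrated and 24.2 and 27.3 in intact samples. C2 stood apart, and the other 4 mice lay within 22.3 to 27.3. The log2 fold change of 0.26 (95% interval -0.76 to 1.29) became -0.17 without C2.

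Fosb (chromosome 7, 19302696 to 19310045), a close relative of Fos, was the scarcest member at 2.28 TPM, with raw counts from 37 to 121. Its CPM was 3.04, 6.49 and 2.05 in castrated and 5.06 and 1.72 in intact samples. The highest and lowest sample of each group differed by 3.17 times in castrated and 2.94 times in intact mice, and the log2 fold change of 0.18 had the widest interval of the 10 genes, from -1.66 to 2.02. It turned negative, to -0.42 and -0.44, without C2 and without I2.

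Among the other transcription factors, Atf3 had the largest log2 fold change of the 10 members, and Egr1 was lowest in the mouse where Atf3 was highest. Atf3 (chromosome 1, 191170297 to 191183333) encodes a stress-induced repressor of the ATF/CREB family. Its CPM was 57.3, 160 and 72.5 in castrated and 55.3 and 53.9 in intact samples. The groups did not overlap, but C1 exceeded I1 by a small margin and C2 was more than 2 times any other sample. The group difference was 0.83 on the log2 scale with a standard error of 0.48 (quasi-likelihood test in edgeR, adjusted p = 0.459), and 0.26 without C2.

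Egr1 (chromosome 18, 34861207 to 34864956), a zinc finger factor that follows ERK activity, had a mean of 76.0 TPM. Its CPM was 82.7, 59.9 and 140 in castrated and 106 and 132 in intact samples. C2, the highest sample for most members, was the lowest for Egr1, and C3 was the highest. Its log2 fold change was -0.34 (95% interval -1.31 to 0.63), and it was -0.73 without C3 and -0.088 without C2.

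Nr4a1 (chromosome 15, 101266846 to 101274794) encodes an orphan nuclear receptor. Its CPM was 16.3, 40.4 and 13.7 in castrated and 25.9 and 25.8 in intact samples. The intact mice were alike and lay between C2 and the other castrated mice, so that the group means of 23.5 ± 14.7 (SD, n = 3) and 25.8 ± 0.073 (SD, n = 2) hid a 2.94-fold span among castrated mice. The log2 fold change was -0.14 and became -0.77 without C2 (unadjusted p = 0.0579, adjusted p = 0.633 in edgeR, range 0.633 to 0.998 over all alternatives). The sign turned to positive without C1, at 0.066, and without C3, at 0.14.

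Ier2 (chromosome 8, 84661331 to 84662852), a small nuclear protein, was among the steadiest members. Its CPM was 43.4, 38.5 and 43.2 in castrated and 50.0 and 36.3 in intact samples. The castrated values all lay between the intact values, and the log2 fold change was -0.049 (95% interval -0.61 to 0.52), or -0.30 without I2 and 0.22 without I1.

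Of the 2 feedback genes, Dusp1 had the wider spread. Dusp1 (chromosome 17, 26505591 to 26508472) encodes a phosphatase that switches off stress kinases and ERK. Its CPM was 29.8, 41.9 and 34.5 in C1, C2 and C3 and 72.3 and 14.0 in I1 and I2. The castrated mice lay close together between an intact mouse above them and an intact mouse below them, and the intact values differed by 5.15 times. The log2 fold change of -0.29 (95% interval -1.94 to 1.37) was 1.35 without I1 (unadjusted p = 0.0115, adjusted p = 0.143 in edgeR) and -1.07 without I2 (unadjusted p = 0.0130, adjusted p = 0.327 in edgeR), and over all alternatives the adjusted p ranged from 0.143 to 0.979. It was also positive with a block for the replicate number, at 0.14, and under limma voom, at 0.11.

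Zfp36 (chromosome 7, 28376784 to 28379228), whose product destabilizes messages with AU-rich elements, had a mean of 96.6 TPM. Its CPM was 51.4, 99.6 and 83.5 in castrated and 68.9 and 71.2 in intact samples. The intact mice again lay inside the castrated range, and the log2 fold change was 0.16 (95% interval -0.63 to 0.94). That value turned to -0.046 without C2 and was 0.39 without C1.

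**Figure D2:**
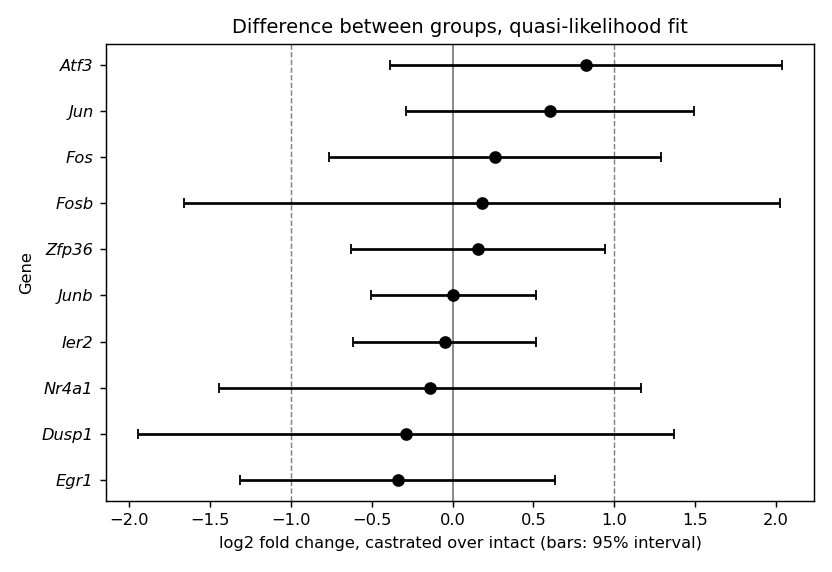
Log2 fold change of castrated over intact samples for each member (horizontal axis), with 95% intervals from the quasi-likelihood fit as bars and dashed lines at -1 and 1. Every interval includes 0, and those of Junb, Ier2 and Zfp36 lie within the dashed lines.

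Without I2, the mouse with secretory transcripts, the log2 fold changes were 0.31 for Fos, -0.44 for Fosb, 0.19 for Jun, -0.056 for Junb, -0.22 for Egr1, 0.77 for Atf3, -0.18 for Nr4a1, -0.30 for Ier2, -1.07 for Dusp1 and 0.14 for Zfp36. The sign turned for Fosb and Junb. For 3 members, Junb, Ier2 and Zfp36, the 95% interval stayed within -1 to 1, so a change of 2-fold in either direction lay outside it, as for 31.3% of genes tested. The intervals of the other 7 members reached past 1 or -1, and for these a 2-fold difference in at least one direction lay inside the interval. In 10 of 10 members the ratio of the highest to the lowest sample inside a group exceeded the fold difference between groups, against 78.7% of genes tested. Spread was compared with genes of like abundance, those within 0.5 log2 units of mean TPM. The within-group SD of log2 CPM of Dusp1, 0.98, was at the 93.1 percentile of such genes, that of Atf3, 0.63, at the 82.8 percentile and that of Nr4a1, 0.68, at the 81.1 percentile. Those of Junb, 0.18, and Ier2, 0.20, were at the 25.5 and 32.7 percentiles.

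By TPM, the order of mean levels was Junb (176), Jun (111), Zfp36 (96.6), Atf3 (93.2), Egr1 (76.0), Ier2 (63.6), Dusp1 (46.8), Fos (31.2), Nr4a1 (22.5) and Fosb (2.28). Junb was the highest member within each of the 5 mice. Within single mice the order of neighbours held in 5 of 5 mice for Junb over Jun, Fos over Nr4a1 and Nr4a1 over Fosb. It held in 4 of 5 mice for Jun over Zfp36, Zfp36 over Atf3 and Ier2 over Dusp1, in 3 of 5 for Egr1 over Ier2 and Dusp1 over Fos, and in 2 of 5 for Atf3 over Egr1, so the middle of the order differed from mouse to mouse. Fosb lay below the other 9 members in all 5 samples. Among genes tested, Junb stood between the 92.6 and 95.3 percentile of TPM in each sample, and Fosb between the 5.39 and 18.1 percentile. The members together made up 0.0571%, 0.0856% and 0.0743% of counts in castrated and 0.0727% and 0.0550% in intact samples.

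The main pattern was one of individual mice. C2 had the highest CPM for 7 of 10 members, against 15.5% of genes tested, and I2 had the lowest for 5 of 10, against 27.5%. Averaged over members as log2 CPM relative to each gene's mean, the level was -0.25, 0.44 and -0.049 in C1, C2 and C3, and 0.17 and -0.31 in I1 and I2. The highest and lowest of these averages within each group thus spanned more than the distance between the groups. Across the 5 samples, which share libraries between genes, Pearson's r was above 0 for 32 of 45 pairs of members, with a median of 0.33. The closest pairs were Junb with Zfp36 (0.92) and Fos with Atf3 (0.91), and the most opposed was Fosb with Egr1 (-0.81). With the mean of the other members, r was highest for Junb (0.83) and lowest for Egr1 (-0.71), followed by Ier2 (0.12). Egr1 was thus the member whose profile over these mice ran opposite to the average of the others.

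**Figure D3:**
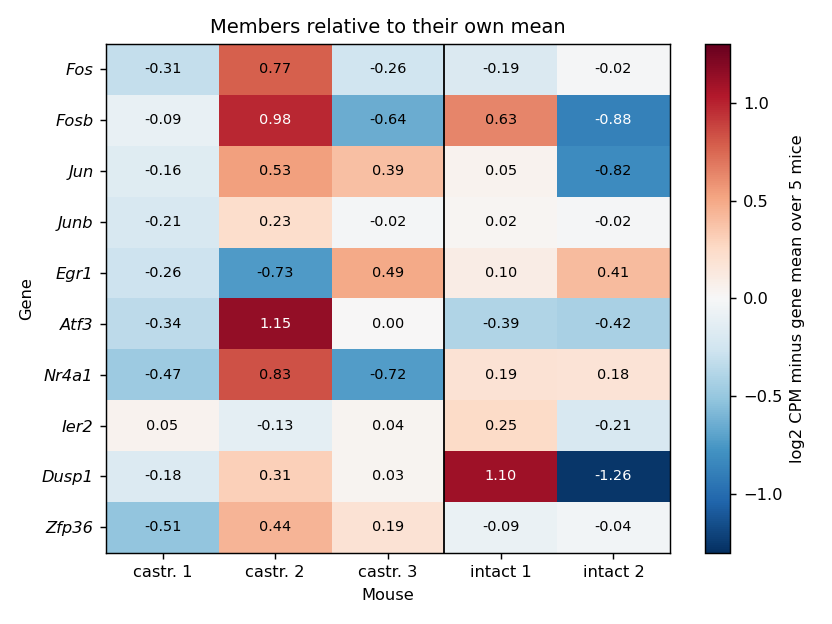
Log2 CPM minus the gene's mean over the 5 mice (color, with the value printed in each cell) for each member (rows) in each mouse (columns), with a line between castrated and intact mice. C2 is above the mean for 8 members and at -0.73 for Egr1, and Dusp1 is at 1.10 in I1 and -1.26 in I2.

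Genes outside the set whose profile over the 5 samples was most like the members' average were Fcrlb, Snx7, Acer3, Stk24, Lnx1, Gnptab, Rasa2 and Ctdp1, with Pearson's r from 0.987 to 0.997 over 5 samples. They were the closest of 13550 genes whose spread was at least 0.5 times that of the average, 136 of which had an r above 0.9.

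Macrophage markers were also highest in C2. Their summed level was 1716, 4679 and 2079 TPM in C1, C2 and C3 and 1000.2 and 817 TPM in I1 and I2. Of 8 macrophage markers, 8 had their highest CPM in C2 and 7 lay above both intact samples in every castrated sample, against 17.0% of genes tested. The median log2 fold change of these markers was 1.40. The unadjusted p with its fold change was passed by 7 of 8, against 10.9% of genes tested, with 0 called after adjustment. Their most abundant gene was C1qa, a complement subunit, and none was at 0 in any sample. Smooth muscle markers were also highest in sum in C2, at 752 TPM against 455 (C1), 619 (C3), 287 (I1) and 140 TPM (I2). Here too 7 of 8 markers lay higher in every castrated sample and passed the unadjusted p with its fold change, with a median log2 fold change of 2.32 and 0 called after adjustment. Fibroblast markers were highest in C3, with a sum of 2776 (C1), 4681 (C2), 6490 (C3), 2337 (I1) and 1199 TPM (I2), and endothelial markers in C1, with a sum of 714 TPM against 90.1 to 378 in the other mice. Neutrophil markers summed to between 347 and 777 TPM, T cell markers to between 14.8 and 81.9 TPM and skeletal muscle markers to between 9.75 and 15.3 TPM. Hemoglobin genes took 0.202% of counts in C1 and 0.0174% or less in the other samples. The part of macrophages, smooth muscle, fat or blood in the levels of the immediate early genes was not tested.

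Related early response genes also gave no call. Of 30 listed, 30 were tested and 0 were called after adjustment. The unadjusted p with a log2 fold change over 1 in either direction was passed by 0, against 10.9% of genes tested. Single genes moved widely with an intact mouse left out, Fosl1 to 2.52 without I1 and to -2.47 without I2. At the unadjusted p alone 2 of 30 passed, Ier5 and Btg2, against 15.0% of all genes tested. These were also the 2 whose groups did not overlap, against 33.1% of all genes tested. Ier5, a partner of heat shock factor, had a CPM of 56.0, 66.8 and 49.6 in castrated and 27.1 and 37.1 in intact samples. For Ier5 the log2 fold change was 0.84 with a standard error of 0.25 (edgeR, unadjusted p = 0.0183, adjusted p = 0.297). Btg2, an antiproliferative target of p53, had a CPM of 162, 119 and 141 in castrated and 93.5 and 63.7 in intact samples. The log2 fold change was likewise 0.84, with a standard error of 0.26 (edgeR, unadjusted p = 0.0212, adjusted p = 0.300). Neither pass held with every sample left out in turn. The unadjusted p in edgeR was 0.0700 for Ier5 without I1 and 0.0539 without C2, and 0.104 for Btg2 without I2, 0.0575 without C1 and 0.0538 without C3. The median log2 fold change of the 30 genes was 0.051, and it was 0.51 without I1 and -0.013 without I2.

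Relatives of the members varied mainly from mouse to mouse. Jund, the constitutive JUN gene, was steady, with a CPM of 146, 156 and 129 in castrated and 142 and 131 in intact samples. Fosl1, an AP-1 subunit of invasive carcinoma cells, was at 6.0, 3.27 and 3.36 CPM in C1, C2 and C3 and at 22.8 and 0.744 CPM in I1 and I2. The intact mice thus differed by 30.7 times and enclosed the castrated mice. Fosl2 was at 121, 209 and 173 CPM in castrated and 162 and 169 CPM in intact samples, a log2 fold change of 0.017. Egr2 was highest in C2, at 44.1 CPM against 10.4 to 26.3 in the other samples, unlike its relative Egr1, while Egr3 was low in every mouse, at 2.09 to 5.26 CPM. Nr4a3 likewise stood at 18.3 CPM in C2 against 2.97 to 7.45 in the others, as Nr4a1 did, and Nr4a2 was highest in I2, at 14.0 CPM against 4.97 to 10.8. Among Ier2's namesakes, Ier3 was at 188 CPM in I1 and at 68.0 to 73.9 CPM in the other mice, and Ier5l was at 8.32 to 23.3 CPM. The Klf genes, zinc finger factors, had log2 fold changes of 0.75 (Klf2), -0.047 (Klf4), -0.17 (Klf6) and 0.15 (Klf10), with overlapping groups. That of Klf2 was 1.73 without I1 and 0.14 without I2. Gadd45b, a stress sensor, had the largest log2 fold change of the 30 upward, 1.31 with a standard error of 0.55 (edgeR, adjusted p = 0.350), at 12.8, 38.8 and 40.5 CPM in castrated and 11.7 and 13.1 CPM in intact samples. C1 lay with the intact mice, and Gadd45g had a log2 fold change of -0.16 with overlapping groups. Ccn2, a target of YAP and SRF and the most abundant of the list at 374 TPM, was at 727 CPM in I1 and 84.7 CPM in I2, with the castrated mice between them at 442, 378 and 256. The Zfp36 relatives Zfp36l1 and Zfp36l2 had log2 fold changes of 0.32 and 0.48, with overlapping groups. The sign of the log2 fold change turned with at least 1 sample left out for Jund, Fosl1, Fosl2, Egr2, Egr3, Nr4a3 and Ier3. The same held for Ier5l, Klf4, Klf6, Klf10, Gadd45g, Ccn2 and Zfp36l1. Of the 30 genes, 12 were highest in C2 and 15 lowest in I2.

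The factors that act on these promoters gave no call either. Of 10 listed, 10 were tested and 0 passed the unadjusted p, against 15.0% of genes tested. The median log2 fold change was -0.082. Leaving out I1 or I2 moved the log2 fold changes of Elk4, Crem and Elk3, as given below. Srf itself was at 28.7, 35.2 and 27.7 CPM in castrated and 31.1 and 32.8 CPM in intact samples. Elk4, a ternary complex factor, was the 1 gene whose groups did not overlap, against 33.1% of genes tested. It was at 74.7, 79.4 and 83.8 CPM in castrated and 121 and 93.0 CPM in intact samples (log2 fold change -0.43, edgeR, adjusted p = 0.366). The log2 fold change of Elk4 was -0.21 without I1 and -0.65 without I2. Crem, which encodes a cyclic AMP responsive factor, had the largest log2 fold change of the list, -0.87, and was at 65.1 CPM in I1 against 16.8 to 31.5 in the other samples. Its log2 fold change was 0.30 without I1 and -1.55 without I2. Elk3, the most abundant of the list at 77.4 TPM, was at 247 CPM in I1 and 62.8 CPM in I2, on either side of the castrated mice, with a log2 fold change of 1.06 without I1 and -0.97 without I2, and Mrtfb, an SRF coactivator, had a log2 fold change of 0.26 with overlapping groups.

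Delayed ERK feedback genes, which are induced downstream of ERK, were mostly highest in I1 and lowest in I2, as the member Dusp1 was. Of 13 tested, 10 were highest in I1 and 9 lowest in I2, against 20.8% and 27.5% of genes tested. Spry4, an inhibitor of receptor tyrosine kinase signaling, was at 182, 56.0 and 20.5 CPM in C1, C2 and C3 and at 331 and 9.02 CPM in I1 and I2. Etv4, an ETS factor downstream of ERK, was at 24.3, 9.81 and 6.58 CPM and at 55.2 and 10.8 CPM in the same order, and Spred3, a further inhibitor of the pathway, at 48.2, 24.0 and 8.53 CPM and at 135 and 14.5 CPM. In each of these genes I1 was highest and C1 second, while C2, the mouse with the highest CPM for most immediate early genes, lay below both of them. Phlda1, the most abundant of the list at 281 TPM, had the same order at its top, with 387 CPM in I1 and 357 CPM in C1. Of the 13 genes 0 were called after adjustment. An unadjusted p under 0.05 was found for 1, Spry2 (0.0451, log2 fold change 0.64, edgeR, adjusted p = 0.328), against 15.0% of genes tested. Spry2 was also the 1 gene whose groups did not overlap, against 33.1% of genes tested. Its unadjusted p was above 0.05 without C1, C3, I1 or I2. The count past the unadjusted p with its fold change was 0, against 10.9% of genes tested. The median log2 fold change of the list was -0.14, and it was 0.74 without I1 and -0.72 without I2.

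Inflammatory early genes followed the immediate early genes in their highest mouse. C2 was highest for 8 of 15 tested, and their median level relative to each gene's mean was 0.53 there against -0.20 to -0.0051 in the other samples. Nfkbia, the NF-κB inhibitor and the most abundant of the list at 128 TPM, was at 67.8, 101 and 111 CPM in castrated and 73.3 and 91.4 CPM in intact samples. Of the 15 genes, 0 were called after adjustment, and 1, Ccl2, passed the unadjusted p with its fold change, against 10.9% of genes tested. Ccl2, a monocyte chemokine, was at 20.7, 21.8 and 12.2 CPM in castrated and 8.11 and 3.21 CPM in intact samples (log2 fold change 1.69, edgeR, adjusted p = 0.301). Ptgs2, the inducible cyclooxygenase, lay the other way without overlap, at 22.7, 26.3 and 8.14 CPM in castrated and 35.7 and 59.7 CPM in intact samples (log2 fold change -1.32, adjusted p = 0.344 in edgeR), and the log2 fold change was -0.95 without I2. That of Ccl2 was 1.13 without I2, with an unadjusted p of 0.0697 in edgeR, and the pass was also lost without C1 or C2. Icam1, an adhesion molecule, was at 35.1, 102 and 102 CPM in castrated and 28.4 and 36.6 CPM in intact samples, with C1 inside the intact range. In all 2 genes of the list lay higher and 2 lower in castrated samples without overlap, against 17.0% and 16.1% of genes tested, and the median log2 fold change was 0.20.

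Heat shock genes, which also respond when tissue is warmed or digested, went both ways in C2. Of 14 tested, 3 were highest in that mouse, Hspa1a, Bag3 and Dnajb4, and 5 were lowest there, among them Hspa8 and Hspe1. The median level relative to each gene's mean lay between -0.039 and 0.12 in all 5 samples. Hspa1a, an inducible chaperone, was at 4.92, 16.8 and 13.6 CPM in castrated and 3.23 and 6.41 CPM in intact samples, and its near-identical copy Hspa1b at 16.1, 40.0 and 35.9 CPM and at 14.2 and 58.1 CPM. Counts of this pair are uncertain because reads cannot always be assigned to one copy. Hspa8, the constitutive chaperone and the most abundant of the list, had a log2 fold change of -0.32 with overlapping groups. Hspe1, a mitochondrial chaperonin, was at 97.8, 67.2 and 69.3 CPM in castrated and 119 and 202 CPM in intact samples (log2 fold change -1.04, unadjusted p = 0.0183, adjusted p = 0.297 in edgeR), and Bag3, a co-chaperone, was at 97.6, 110 and 96.7 CPM against 79.6 and 55.5 CPM (log2 fold change 0.59, unadjusted p = 0.0452, adjusted p = 0.328 in edgeR). Of the 14 genes 0 were called after adjustment, and 4 had groups that did not overlap, 2 in each direction, against 33.1% of genes tested. Without I2 the log2 fold change of Hspe1 was -0.64 and that of Bag3 0.31, with unadjusted p values of 0.0863 and 0.214 in edgeR. Both also lost their unadjusted pass without C2 or C3, and Bag3 without C1. The median log2 fold change was -0.090. The part of tissue handling in these levels or in those of the immediate early genes was not tested.

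Hypoxia genes singled out I1, which was highest for 9 of 10 and had a median level of 1.13 relative to each gene's mean, against -0.53 in I2 and -0.24 to -0.12 in castrated samples. Vegfa, the angiogenic factor, was at 118, 124 and 66.5 CPM in castrated and 333 and 157 CPM in intact samples (log2 fold change -1.26, unadjusted p = 0.0290, adjusted p = 0.309 in edgeR). Car9, a carbonic anhydrase, was at 38.1 CPM in I1 and at 2.39 to 7.99 CPM in the other samples. Bnip3, a mitophagy receptor, was at 114, 95.7 and 136 CPM in castrated and 222 and 139 CPM in intact samples, without overlap. Adm, a vasodilator peptide, was likewise at 40.3 CPM in I1 and at 5.65 to 17.7 CPM in the other mice. I1 was also the mouse with the highest Dusp1 and Ier2 and the highest sum of epithelial markers. Of the 10 genes 0 were called after adjustment, 1, Vegfa, passed the unadjusted p with its fold change, against 10.9% of genes tested, and 2 had groups that did not overlap, against 33.1%. The number past the unadjusted p with its fold change was 0 without any one castrated mouse, against 6.09% to 13.5% of genes tested. No such number is given for the fits without I1 or I2. Those fits leave 1 intact mouse, and the list's median moved to opposite signs in them. Egln3 had a log2 fold change of 1.41 without I1 and -1.15 without I2. Vegfa had a log2 fold change of -0.59 without I1 and -1.74 without I2. The median log2 fold change of the list was -0.56, and it was 0.56 without I1 and -1.20 without I2. No gene of the early response, SRF and CREB factor, ERK feedback, inflammatory, heat shock and hypoxia lists was called under any alternative setting. The part of hypoxia, ERK output or epithelial content in the levels of the immediate early genes was not tested.

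**Figure D4:**
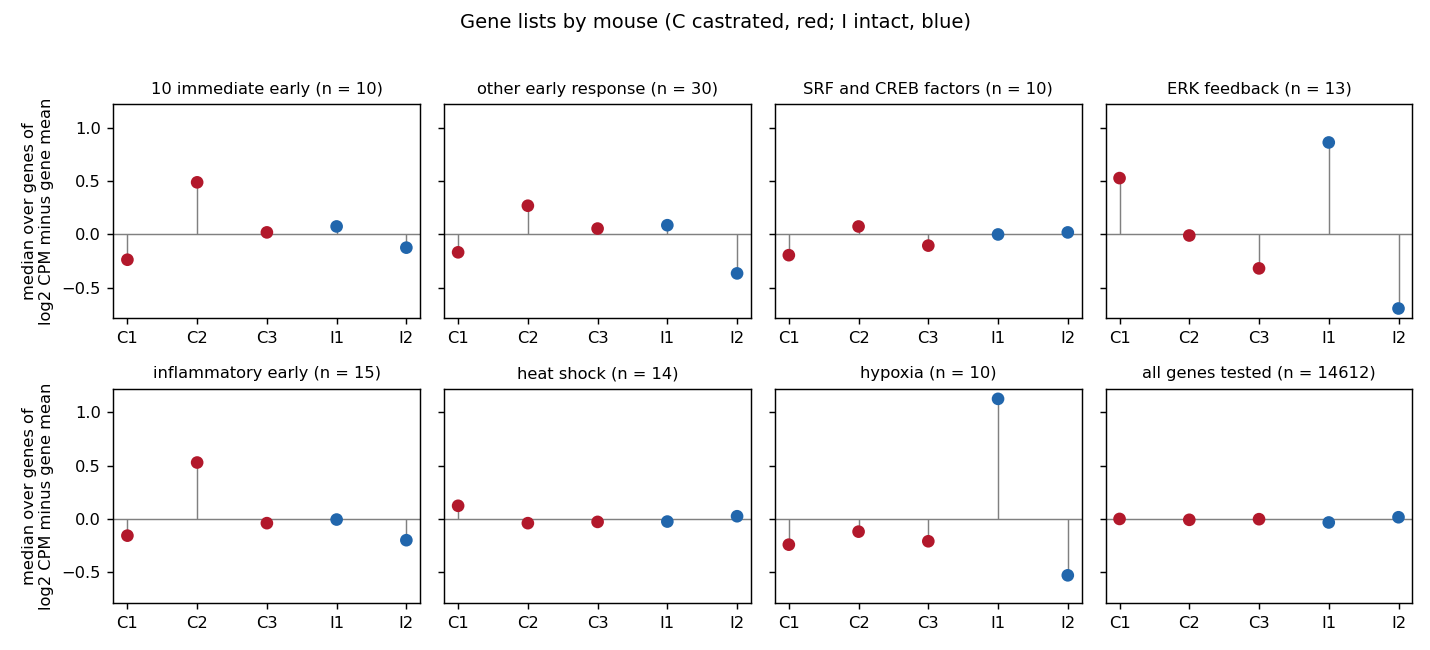
Median over the genes of each list of log2 CPM minus the gene's mean (vertical axis) in castrated mice C1 to C3 (red) and intact mice I1 and I2 (blue). The 10 immediate early genes and the inflammatory genes peak in C2, the ERK feedback and hypoxia genes in I1, and the heat shock genes lie between -0.039 and 0.12.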

How the data were processed

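RNA-seq libraries of 3 castrated and 2 intact mice were analyzed, and no sample was left out. Per the labels, the authors used Trimmomatic 0.39 for trimming, STAR 2.7.9 for alignment (mm10) and HTSeq 2.0.2 for counting. The deposited counts per gene were not normalized, and the deposited gene lengths in kilobases were used for TPM. Whether counting used strand is not given in the sources used here, so overlapping and antisense genes are uncertain. R 4.3.3, edgeR 4.0.16, limma 3.58.1 and DESeq2 1.42.0 were used. The filter, quasi-likelihood test and thresholds followed the study's methods, with counts in place of TPM. Standard errors were derived from F and the log2 fold change, and 95% intervals from them and the test's degrees of freedom. For profiles, log2 CPM (prior count 2) was centred on each gene's mean. The members, lists and tests were chosen with earlier results of these data known. Named genes were the 10 members, the Fos, Jun, Egr, Nr4a, Klf, Ier, Gadd45 and Zfp36 families of the early response list, the 3 genes with the largest absolute fold change and the most abundant gene of each further response list, and the 8 closest profiles. Marker lists were given as sums. Btg2, Ccn2, Srf, Hspa1b, Dnajb4, Egln3, Spry2, Krt18, Tgm4, Pbsn, Msmb and C1qa were chosen after their values were seen. Cyr61, Ctgf, Mkl1 and Mkl2 were found as Ccn1, Ccn2, Mrtfa and Mrtfb. The procedures were tested on simulated data.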

Additional observations from a re-analysis of the deposited data

How the results depend on the processing

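Alternatives were 3 other scalings, DESeq2, the likelihood ratio test, the older quasi-likelihood fit, limma voom, 2 other filters, TPM in place of counts, removal of the 20 most abundant genes, the replicate number as a block, and leaving out each sample. Under the 12 settings that left no sample out, members called and members past the unadjusted threshold stayed at 0 and members without overlap at 1. The members' median log2 fold change ranged from 0.071 to 0.12 under these settings, while that of ERK feedback genes ranged from -0.16 to 0.33. Over all genes, calls went from 0 to 989 (DESeq2) and 369 (likelihood ratio test). The count at the unadjusted p with its fold change went from 1596 to 975 with the replicate block and to 2153 with no filter on low counts. Same-numbered samples are different animals, and their deviations correlated at 0.149 and -0.045. C3 has no intact sample of its number, so with the replicate block it adds nothing to the fitted group difference. Junb reversed to -0.0019 with upper quartile scaling and -0.0011 with limma voom, and Dusp1 to 0.11 with limma voom and 0.14 with the replicate block.

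Leaving out 1 sample at a time, members called stayed at 0, members past the unadjusted threshold ranged from 0 to 2 (Jun and Dusp1 without intact replicate 1, Dusp1 without intact replicate 2, where 17.8% and 10.3% of all genes passed), and members without overlap from 2 to 5, where fewer samples also raised the share over all genes to between 37.7% and 72.0%. Calls over all genes ranged from 0 to 1 and unadjusted calls from 867 to 2570. The members' median ranged from -0.12 to 0.22. List medians ranged from -0.076 to 0.51 for other early response genes, from -0.17 to 0.043 for SRF and CREB factors, from -0.72 to 0.74 for ERK feedback genes, from 0.16 to 0.45 for inflammatory genes, from -0.082 to 0.021 for heat shock genes and from -1.20 to 0.56 for hypoxia genes. Log2 fold changes of members ranged from -0.17 to 0.45 for Fos, from -0.44 to 1.18 for Fosb, from -0.11 to 0.11 for Junb, from -0.77 to 0.14 for Nr4a1, from -0.30 to 0.22 for Ier2, from -1.07 to 1.35 for Dusp1 and from -0.046 to 0.39 for Zfp36, each crossing 0, while Jun (0.19 to 1.12), Atf3 (0.26 to 1.09) and Egr1 (-0.73 to -0.088) kept their sign. The cause of these changes was not tested.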
